A study of Mus musculus with 12 samples.

Results

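This account compares 2 forms of neurofilament light chain (NfL) given to cultured mouse microglia: the full-length protein and a form labelled coiled-coil. The libraries were chosen by their labels alone, namely the 4 treated with full-length NfL and the 4 treated with coiled-coil NfL, which are 8 of the 12 libraries in the series. The other 4 received vehicle and serve here as reference levels that enter no test. All cells were primary microglia of wild-type (WT) C57BL/6 mice, grown from brains of pups aged P1 to P2. They grew for 10 to 13 days in flasks of mixed glia, were shaken off over 2 h, and were plated at 50000 cells per well in medium with 10% serum and 2.5 ng of the growth factor CSF1 per well. Experiments followed within 2 to 4 days of plating. Cells of each group then received vehicle, 5 µg of full-length NfL or 5 µg of coiled-coil NfL for 24 h. The dose was stated by mass, and the sources used here name neither the species nor the residues or preparation of the proteins. Each replicate number from 1 to 4 carries a batch label of its own, so every batch held 1 library of each group. Whether the batches were separate cultures or litters is not stated, so the p-values reflect only how these samples spread, which may be technical.

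NfL is an intermediate filament protein of neurons that helps to set the calibre of axons and appears in cerebrospinal fluid and blood after axonal damage. Its central rod forms coiled coils that pair subunits into filaments, and a head and a tail domain flank the rod. Microglia are the resident macrophages of the brain. They sense extracellular proteins and debris through toll-like, scavenger, Fc and other receptors, and they answer with cytokines, chemokines, interferon-induced genes and shifts in metabolism.

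Total counts ran from 20162427 to 31048044 in the 8 libraries, with 20162427 to 31048044 in the coiled-coil group and 21421782 to 29513940 in the full-length group. Of 52636 genes listed, 14140 passed the count filter and were tested. Batch was the larger source of variation: over the 8 libraries, principal component 1 carried 54.4% of the variance and principal component 2 carried 28%. Batch explained 93.5% of the first and 55.1% of the second, and treatment 6.16% and 44.6%. Summed markers of microglial identity stood at 10772 to 13124 CPM (counts scaled to the library total). The list members Csf1r, C1qa and Cx3cr1 were each above 480 CPM in all 8 libraries. Other members were much lower, with P2ry12 at 28.7 to 59.1 CPM, Tmem119 at 11.95 to 27.2 CPM and Siglech at 0 to 0.115 CPM. Nefl, the mouse gene of NfL, had 0 to 3 counts per library, which was too few for a test.

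Transcript levels in microglia differed widely between the 2 forms of NfL. Of the 14140 tested genes 3349, or 23.7%, differed at an adjusted p below 0.05 (edgeR quasi-likelihood test with the batch as a block, Benjamini-Hochberg adjustment over all tested genes, 2-sided). Of these, 1658 (11.7% of tested genes) were higher with full-length NfL and 1691 (12%) were lower. Most differences were modest, with a median absolute log2 fold change of 0.43 among called genes, and 132 higher and 223 lower genes differed by at least 2-fold. The smallest adjusted p was 9.83e-06, for Dkk2. In all 4 batches 3262 of the 3349 genes moved in the called direction. For 1337 of them (39.9%) the 4 full-length libraries did not overlap with the 4 coiled-coil libraries in CPM, against 12.8% of all tested genes. The called genes were picked by a test on these same libraries and are part of the 12.8%. Neither count is therefore separate support for the calls. These calls rest on the comparison within batches: without the block, the same 8 libraries gave 85 higher and 83 lower genes. All 3349 calls kept their direction in that fit, which uses the same libraries and is therefore not separate support either.

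**Figure D1:**
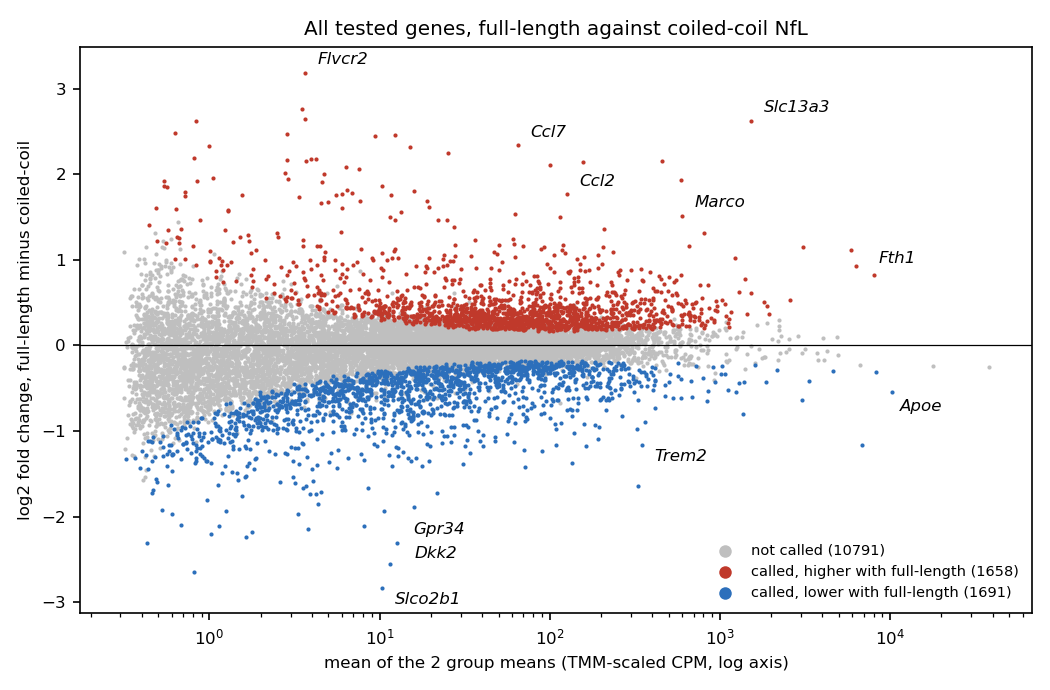
Each point is 1 of the 14140 tested genes, placed by the mean of the coiled-coil and full-length group means (TMM-scaled CPM, log axis) and by its log2 fold change, full-length minus coiled-coil. Red points were called higher (1658) and blue points lower (1691), with 132 red and 223 blue points at least 1 log2 unit from 0.

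Levels below are TMM-scaled CPM, given for batches 1 to 4 in that order, and changes are log2 fold changes of full-length over coiled-coil NfL with ± the SE of the fit. Adjusted p-values are those of the edgeR quasi-likelihood test, and genes written as called, risen or fallen had one below 0.05. Counts of called members in a list are to be read beside the 11.7% of all tested genes called higher and the 12% called lower. The 33 function lists hold 717 genes, of which 39 are in more than 1 list. Some calls therefore count in several lists, and the lists are not separate results. Among genes with at least 5 CPM in the higher group and the same direction in every batch, the largest rise was in Flvcr2 (ENSMUSG00000034258, GRCm38 chr12:85746539-85813585), a choline transporter of the FLVCR family. Flvcr2 stood at 0.642, 1.23, 0.296 and 0.417 CPM with coiled-coil NfL and at 2.08, 17.2, 1.899 and 5.47 CPM with full-length NfL. Every full-length library lay above every coiled-coil library, with batch 2 far above the other three, and the change was 3.18 ± 0.32 (SE; adjusted p = 0.000367). Vehicle libraries averaged 0.475 CPM, with 1 of the 4 at 0.

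Slc13a3 (ENSMUSG00000018459, GRCm38 chr2:165405028-165473230), a sodium-coupled carrier of dicarboxylates that also takes up itaconate, combined a large rise with a high level. It measured 266, 721, 168 and 616 CPM with the coiled-coil form and 2777, 4012, 949 and 2753 CPM with the full-length form. The groups did not overlap, batch 3 was the lowest in each, and the change of 2.63 ± 0.17 (SE; adjusted p = 6.57e-05) is 6.18-fold. With vehicle the libraries read 352, 29.98, 28.9 and 28.2 CPM, so batch 1 alone was high without NfL.

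Several genes that were low with coiled-coil NfL rose in every batch. Nhs, which is mutated in Nance-Horan syndrome and acts on the actin skeleton, went from 1.36, 0.904, 0.197 and 1.17 to 7.31, 8.804, 2.52 and 5.89 CPM. Syt7, a calcium sensor of membrane fusion, went from 1.02, 1.32, 0.345 and 1.17 to 5.29, 12.1, 1.44 and 6.497 CPM. Both genes separated the groups completely, with batch 3 lowest in each group, and changed by 2.77 ± 0.22 (SE; adjusted p = 0.00012) and 2.65 ± 0.20 (SE; adjusted p = 9.67e-05). Rims3, a regulator of vesicle release, read 4.46, 5.23, 3.89 and 6.36 and then 24.1, 32.7, 15.4 and 28.3 CPM (2.32 ± 0.12). Sez6l2, a membrane protein related to seizure protein 6, read 2.34, 4.07, 1.58 and 3.56 and then 11.9, 26.6, 9.29 and 16.1 CPM (2.45 ± 0.12). In these 2 genes, too, no full-length library fell within the coiled-coil range, and vehicle means were 3.24 and 2.92 CPM.

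Cd300e, an activating receptor of monocytes and macrophages, rose from 1.25, 6.07, 2.22 and 6.63 CPM to 10.3, 22.9, 20.8 and 28.7 CPM, a change of 2.45 ± 0.20 (SE; adjusted p = 0.000139) without overlap. Cd55, which speeds the decay of complement convertases, went from 0.3401, 2.36, 0.986 and 2.69 to 8.61, 8.804, 2.89 and 7.24 CPM. Its rise was 2.17 ± 0.38 (SE; adjusted p = 0.00438), and batch 1 gave the steepest step. Zfp811, a zinc finger gene, changed by 2.16 ± 0.25 from a mean of 1.39 to 6.02 CPM. Lox, which crosslinks collagen and elastin, was among the rises with the smallest p, from 64.9, 74.3, 32.4 and 67.99 to 214, 213, 99.5 and 151 CPM (1.501 ± 0.09, adjusted p = 5.1e-05). The groups of Lox and Zfp811 did not overlap either.

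**Figure D2:**
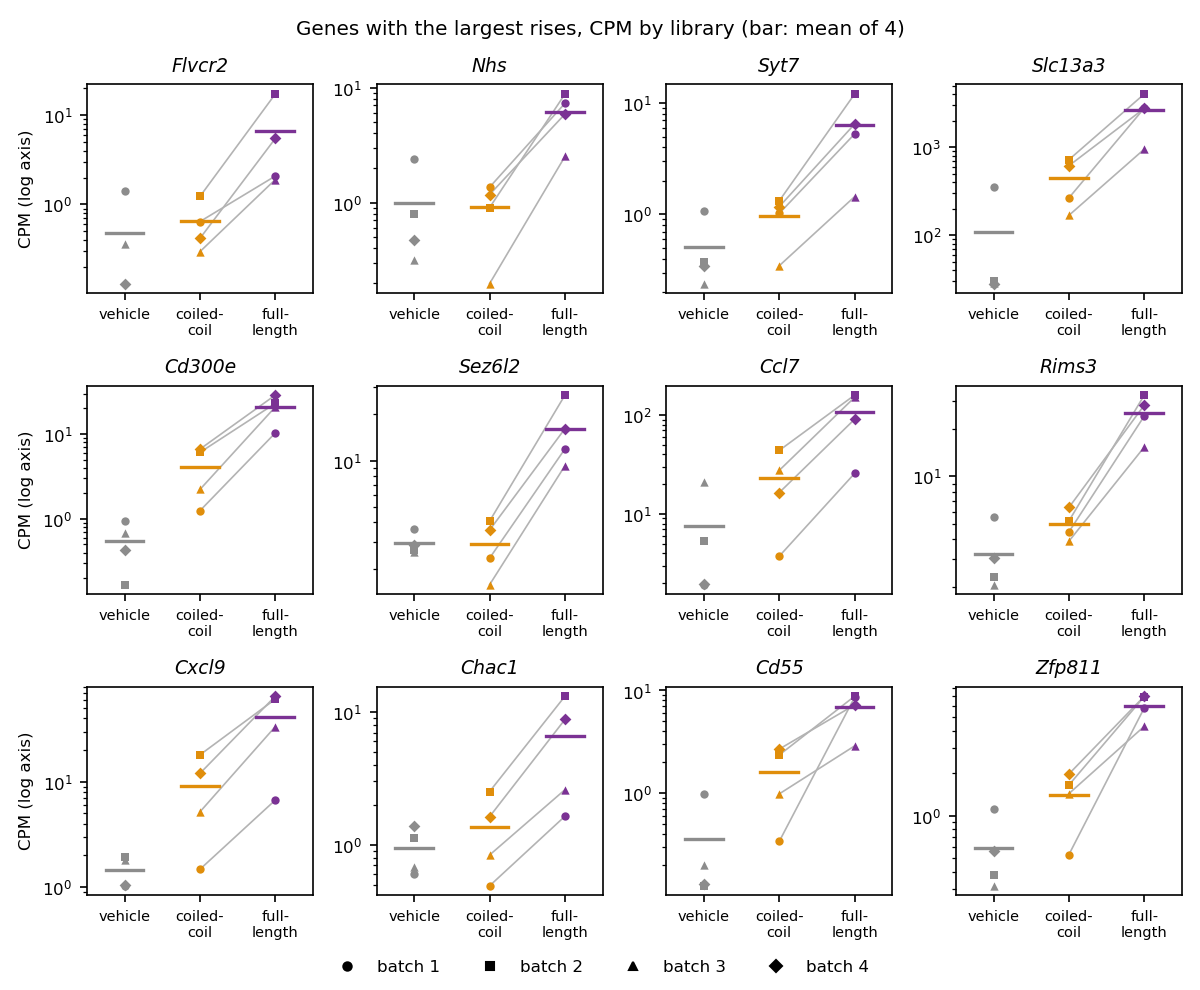
CPM (log axis) of the 12 genes with the largest rises, by library: vehicle in grey, coiled-coil in orange, full-length in purple, with 1 symbol per batch, lines joining the libraries of a batch and bars at the mean of 4 libraries. Every line climbs from coiled-coil to full-length in all 12 genes, and the vehicle library of Flvcr2 at 0 CPM has no point on the log axis.

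The largest fall was in Slco2b1 (ENSMUSG00000030737, GRCm38 chr7:99657804-99711340), an organic anion transporter of microglia. It stood at 17.005, 16.9, 20.3 and 18.4 CPM with coiled-coil NfL and at 2.48, 1.59, 3.43 and 2.898 CPM with full-length NfL. The coiled-coil libraries were close together and all 4 full-length libraries lay far below them, a change of −2.83 ± 0.14 (SE; adjusted p = 2.05e-05), or 7.10-fold lower. The vehicle mean was 51.5 CPM.

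Dkk2 (ENSMUSG00000028031, GRCm38 chr3:132085292-132180304), a secreted modulator of Wnt signalling, had the smallest p of all genes. Its coiled-coil libraries read 37.9, 16.4, 9.66 and 14.5 CPM and its full-length libraries 6.67, 2.79, 1.53 and 2.48 CPM. The step was nearly the same in each batch, so that the change of −2.55 ± 0.10 had a narrow 95% interval of −2.78 to −2.33. Without the block it was −2.52 with an adjusted p of 0.0617 in the edgeR quasi-likelihood test.

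Gpr34 (ENSMUSG00000040229, GRCm38 chrX:13632089-13640858), a lysophosphatidylserine receptor of microglia, went from 26.3, 9.46, 35.9 and 12.5 to 4.32, 1.35, 7.68 and 3.88 CPM. The groups did not overlap, and the change was −2.304 ± 0.16 (SE; adjusted p = 7.81e-05). Gpr183, the receptor for dihydroxylated oxysterols, went from 48.1, 22.05, 34.1 and 29.1 to 14.4, 6.17, 9.37 and 10.7 CPM (−1.72 ± 0.09). Tgfb3, a ligand of the TGF-beta family, went from 5.78, 7.07, 4.54 and 6.63 to 1.71, 1.63, 2.11 and 1.73 CPM (−1.73 ± 0.18). Both separated the groups in all libraries.

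Among the other large falls, Cytip, which binds cytohesins, changed by −2.11 ± 0.11, the RNA-binding Samd4 by −1.96 ± 0.28 and Pcp4l1 by −1.89 ± 0.14. Asb10, a SOCS box protein, changed by −1.71 ± 0.13. The groups of these 4 genes did not overlap. Mamdc2 (−2.14 ± 0.19), the transglutaminase gene F13a1 (−1.93 ± 0.20) and Zfyve28 (−1.85 ± 0.20) fell in every batch, but their coiled-coil and full-length ranges overlapped, with batch 1 high in both groups. In Mamdc2 batch 1 went from 18.6 to 3.75 CPM, and the other batches started between 1.77 and 2.69 CPM. Zfp704, a zinc finger gene, had a smaller change of −0.88 ± 0.06 (SE; adjusted p = 6.57e-05) that varied little between batches, from 101, 53.3, 69.1 and 73.1 to 53.4, 28.2, 37.2 and 41.7 CPM. Its groups overlapped only where batch 1 with full-length NfL met batch 2 with coiled-coil NfL.

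**Figure D3:**
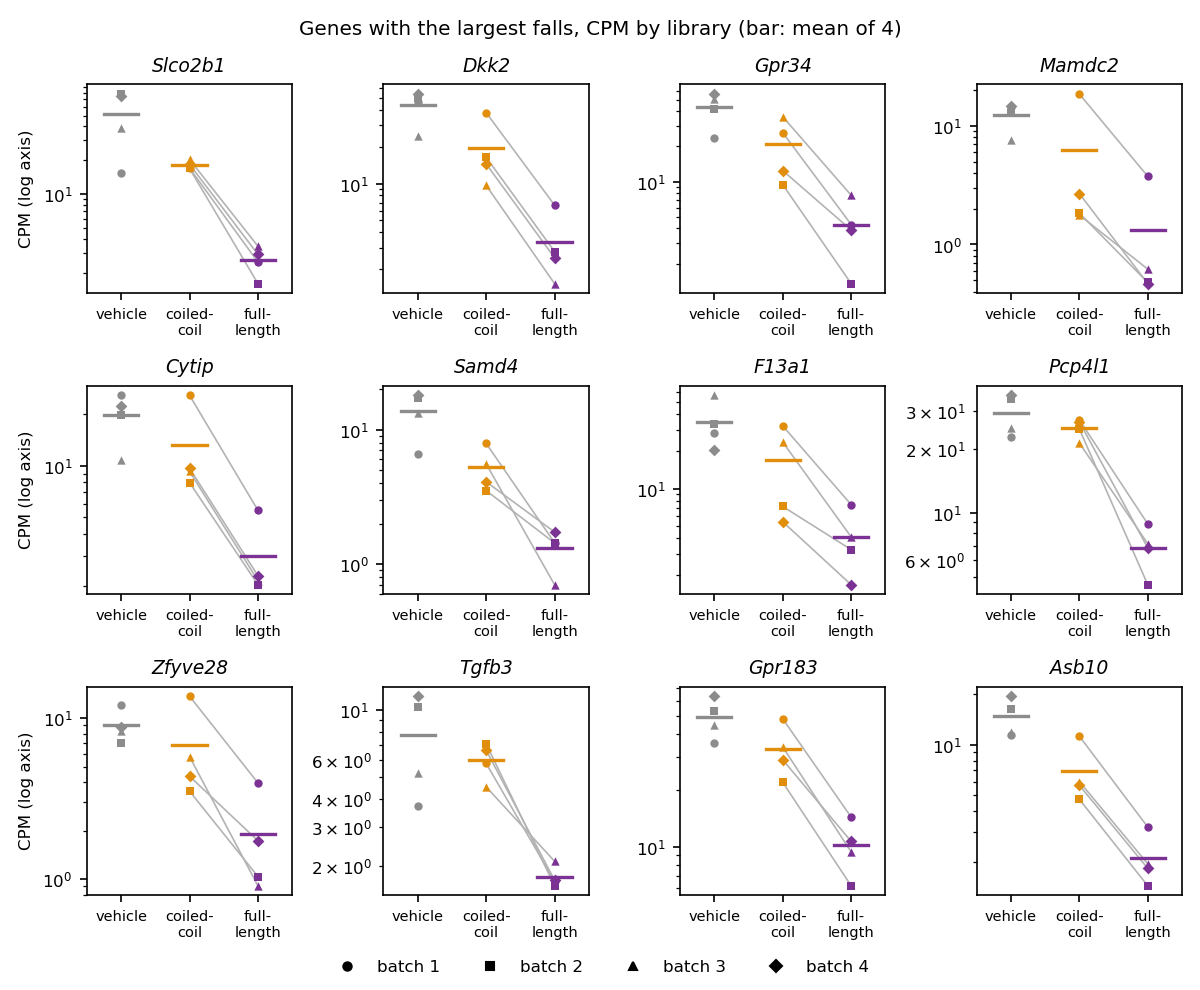
CPM (log axis) of the 12 genes with the largest falls, by library, with the colours, symbols, lines and bars used for the rises. Every line drops from coiled-coil to full-length. The circles of batch 1 stand above the other batches with both NfL forms in several genes, which include Mamdc2, Cytip, Zfyve28, Dkk2 and Gpr183.

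Of 145 genes that met the rule for naming and passed the test, 115 also passed in each of the 12 fits with the block, and 18 passed in all 14 fits, with and without it. Those 18 were Slco2b1, Sez6l2, Rims3, Gpr183, Bmp2, Pcp4l1, Trem2, Nhs, Nos2, Irak3, Plau, Arl4c, Tgfb3, Hk3, Zfp811, Cxcr4, Hk2 and Samd4.

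Cytokine and mediator genes were mostly higher with the full-length form. Of 15 tested members 9 rose and none fell, with a median log2 fold change of 0.64 against −0.01 over all tested genes, and 1 of the 15 was called without the block. Nos2 (ENSMUSG00000020826, GRCm38 chr11:78920787-78960254), the inducible nitric oxide synthase, read 1.44, 3.74, 2.02 and 2.197 CPM with coiled-coil NfL and 5.63, 13.6, 14.5 and 7.34 CPM with full-length NfL. All full-length values exceeded all coiled-coil values, a change of 2.09 ± 0.18 (SE; adjusted p = 0.000163). Il1rn, the secreted antagonist of the interleukin 1 receptor, went from 16.6, 31.4, 49.3 and 27.2 to 39.8, 71.5, 105 and 61.4 CPM. The ranges overlapped, yet each batch rose by a similar step and the change was 1.18 ± 0.06 (SE; adjusted p = 2.05e-05).

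Il1b, the precursor of interleukin 1 beta, went from 82.5, 107, 72.6 and 85.3 to 131, 195, 107 and 118 CPM (0.64 ± 0.07, adjusted p = 0.000618). With all 12 libraries in the model its change was 0.64 and its adjusted p 0.134. Tnf, the tumour necrosis factor gene, went from 36.96, 57.2, 39.7 and 55.6 to 75.9, 84.4, 44.5 and 73.98 CPM (0.55 ± 0.12, adjusted p = 0.0113), with the smallest step in batch 3 and overlapping ranges. Il6 had 1 to 7 counts per coiled-coil library and 5 to 18 per full-length library, too few for a test.

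Chemokine genes split by member. Of 17 tested, 8 rose and 2 fell (none called without the block), with a median of 0.52 that batch 4 did not share (−0.11). The share of falls is near the 12% of all tested genes called lower, and 11.7% were called higher. The median was 0.14 without batch 1, 0.85 without batch 4 and 0.20 without the block. Ccl2 (ENSMUSG00000035385, GRCm38 chr11:82035571-82037453), the main attractant of CCR2-bearing monocytes, stood at 20.5, 78.4, 91.7 and 47.2 CPM with coiled-coil NfL and at 86.7, 244, 267 and 168 CPM with full-length NfL. Each batch climbed by a similar factor, 3.40-fold in the fit (1.77 ± 0.09, adjusted p = 2.05e-05), although batch 1 with full-length NfL lay inside the coiled-coil range. Ccl7, which attracts monocytes through the same receptor, went from 3.74, 43.8, 27.6 and 16.4 to 25.7, 159, 151 and 90.7 CPM (2.34 ± 0.13), again with batch 1 inside the coiled-coil range.

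Cxcl9 and Cxcl10, interferon-induced ligands of CXCR3, differed from each other. Cxcl9 went from 1.47, 18.01, 5.18 and 12.01 to 6.702, 61.03, 33.4 and 65.1 CPM, a change of 2.24 ± 0.14 (SE; adjusted p = 6.57e-05), with batch 1 low in both groups. Cxcl10 went from 37.5, 86.9, 80.8 and 64.96 to 36.3, 75.7, 109 and 59.7 CPM, with a 95% interval of −0.20 to 0.24 around 0.02 and both ranges mixed. Its sign changed with the setting, as the closing section gives. Cxcl14 moved the other way, from 75.95, 33.3, 35.2 and 46.1 to 42.3, 16.3, 27.7 and 19.4 CPM (−0.87 ± 0.12).

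Receptors for chemoattractants showed 2 rises and 4 falls among 13 genes (median −0.34). The share of rises is close to the 11.7% of all tested genes called higher, and 12% were called lower. Fpr1, a receptor for formylated peptides, went from 77.3, 116, 107 and 121 to 219.9, 214, 206 and 212 CPM, without overlap and with nearly equal full-length libraries (1.03 ± 0.11). With all 12 libraries in the model its call was lost (0.99) and the list had no rise. Cxcr4, the receptor of CXCL12, went from 134, 83.9, 93.1 and 84.1 to 37.4, 49.5, 43.4 and 37.02 CPM, again without overlap (−1.22 ± 0.14). Cx3cr1, the receptor for neuronal fractalkine, changed by −0.65 ± 0.09, and C5ar2, a receptor for C5a, by −0.48 ± 0.11, a call lost without batch 2 (−0.38). Without batch 2 the list had 2 falls.

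Toll-like receptors and their adaptors had 7 rises and 3 falls among 23 genes, with a median of −0.01 whose sign changed in 6 of the alternative settings. The share of falls is near the 12% of all tested genes called lower, and 11.7% were called higher. Without batch 4 there were 4 rises and no fall, and without batch 2 there was 1 fall. Irak3, which restrains the signalling of these receptors, went from 39.9, 41.4, 46.2 and 42.4 to 121, 93.1, 94.3 and 76.98 CPM (1.17 ± 0.11, adjusted p = 0.000201). Tlr1, a partner of TLR2, went from 67.4, 139, 112 and 114 to 177, 219, 181 and 199 CPM (0.88 ± 0.11). Both rose without overlap, and the adaptor gene Ticam1 changed by 0.45 ± 0.07. Tlr2 and Tlr4, receptors for bacterial lipoproteins and lipopolysaccharide, did not pass the test: Tlr2 averaged 401 ± 22.9 (SD, n = 4) and 398 ± 57.3 CPM, with a 95% interval of −0.20 to 0.16 for the change, and Tlr4 averaged 229.9 ± 4.13 and 209.7 ± 26.99 CPM, with an interval of −0.33 to 0.04. Their co-receptor gene Cd14 changed by −0.42 ± 0.09 (SE; adjusted p = 0.00829), a call lost without batch 4 (−0.34).

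In the NF-kB pathway 8 of 23 genes rose and 1 fell, with a median of 0.11 (0.07 without batch 1). Without batch 2 or batch 3 there were 5 rises, and with all 12 libraries in the model 2. Nfkbiz, an inducible nuclear cofactor, went from 72.4, 125, 94.2 and 113 to 196, 253, 117 and 233 CPM (0.96 ± 0.14), with the smallest step in batch 3 and overlapping ranges. Traf2 changed by 0.40 ± 0.07 and the feedback inhibitor gene Tnip1 by 0.41 ± 0.07, both without overlap. The call of Traf2 was lost with all 12 libraries (0.40). The single fall was the inhibitor gene Nfkbie. It changed by −0.48 ± 0.11, a call lost without batch 2 (−0.42) or batch 4 (−0.35).

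Immediate early genes, which respond within minutes to many stimuli, were more often lower, with 2 rises and 6 falls among 25. The number of falls was 3 without batch 1, 3 without batch 3 and 2 without batch 4, and that of rises 5 without batch 1 and 1 without batch 2. Nr4a1, a nuclear receptor, went from 13.6, 6.65, 5.52 and 6.36 to 8.14, 3.59, 2.31 and 3.27 CPM (−0.93 ± 0.13). Fos went from 239, 169, 117 and 189 to 179, 82.5, 79.2 and 94.97 CPM (−0.75 ± 0.10), and Fosl2 changed by −0.31 ± 0.06 with a call lost without batch 3 (−0.29) or batch 4 (−0.27). Klf2, a factor that restrains myeloid activation, rose from 9.45, 12.1, 12.8 and 10.6 to 15.1, 16.7, 21.5 and 17.01 CPM without overlap (0.64 ± 0.09).

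Type I interferon genes rose with the full-length form. Of 36 tested, 25 were higher and none lower, with a median of 0.36, but the number depended on the libraries. It was 9 without batch 3, 11 without batch 4, 4 with all 12 libraries in the model and 0 without the block, while the median stayed between 0.29 and 0.48 in every fit. Within batches 1 to 4 the median was 0.41, 0.07, 0.56 and 0.39, so batch 2 hardly shared the rise. Usp18, which dampens interferon receptor signalling, went from 68.1, 144, 100.5 and 109.7 to 99.8, 203, 209 and 183 CPM (0.71 ± 0.09, adjusted p = 0.00103). Oasl1 went from 25.5, 114, 76.3 and 74.1 to 64.5, 149, 165 and 132 CPM (0.90 ± 0.13), and Xaf1 from 51.7, 105, 88.3 and 90.98 to 72.95, 135, 119 and 125 CPM (0.44 ± 0.06). In all 3 genes the ranges overlapped while each batch rose.

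Irf7, the interferon-induced transcription factor that amplifies the response, went from 347, 1743, 1052 and 1216 to 835, 2016, 2196 and 1806 CPM (0.78 ± 0.15, adjusted p = 0.00738). Batches 1 and 3 rose most and batch 2 least, and the ranges overlapped. The call was lost without batch 3 (0.68) and with all 12 libraries in the model (0.73). Vehicle libraries stood at 254, 487, 786 and 247 CPM, with batch 3 highest.

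Interferon-inducible GTPases, which act on the vacuoles of intracellular pathogens, had 7 rises and no fall among 15 genes (median 0.37). Their median within batches 1 to 4 was 0.42, 0.05, 0.58 and 0.52, again lowest in batch 2. Without batch 3 there were 4 rises, and with all 12 libraries 1. Gbp2 went from 59.02, 179, 132 and 121 to 132, 249.6, 270.2 and 216 CPM (0.88 ± 0.10, adjusted p = 0.000663). Gbp3 and Gbp5 changed by 0.56 ± 0.07 and 0.56 ± 0.08. The calls of all 3 were lost with all 12 libraries in the model (0.85, 0.55 and 0.55).

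Interferon signalling acts through response elements in promoters. Promoters of the listed genes were compared with those of all genes in RefSeq on GRCm38.p6, using only the first-listed promoter of each gene. Each promoter ran from 250 bases before to 50 after the start of transcription. The element was searched as GAAANNGAA on both strands. It was in 8.57% of all 27025 promoters, in 7.49% of the 9953 of tested genes, in 9.87% of the 1256 matched promoters of genes called higher and in 6.49% of the 1279 of genes called lower. Of the type I interferon list 16 of 25 matched promoters held it, and of the GTPase list 9 of 10. These lists hold known interferon targets, so their shares describe the lists and not the response. The stretches below are from 3 genes of these lists that rose and from Cxcl10, which did not pass the test. They show that a called and an uncalled gene can both hold the element. Each is read 5′ to 3′ on the strand of the gene, as a window of 100 bases around a match within the 250 bases before the start. Matches on either strand are in capitals. The windows span 112 to 13 bases before the start for Isg15, 165 to 66 for Rsad2, 104 to 5 for Gbp2 and 250 to 151 for Cxcl10.
Isg15, chr4:156200831-156200930, minus strand: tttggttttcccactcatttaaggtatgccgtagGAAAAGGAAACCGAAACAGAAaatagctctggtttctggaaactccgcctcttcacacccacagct
Rsad2, chr12:26456518-26456617, minus strand: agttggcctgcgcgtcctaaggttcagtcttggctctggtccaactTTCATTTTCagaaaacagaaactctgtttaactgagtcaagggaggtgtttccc
Gbp2, chr3:142620559-142620658, plus strand: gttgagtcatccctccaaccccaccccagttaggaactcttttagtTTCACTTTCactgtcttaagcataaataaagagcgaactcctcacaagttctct
Cxcl10, chr5:92349040-92349139, minus strand: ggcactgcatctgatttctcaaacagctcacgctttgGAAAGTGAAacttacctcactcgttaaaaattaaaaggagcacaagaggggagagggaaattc

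Isg15, a ubiquitin-like modifier, holds 3 overlapping matches in its stretch. It averaged 266 CPM with coiled-coil NfL and 427 CPM with full-length NfL (log2 fold change 0.76). Rsad2, an antiviral enzyme, averaged 347 and 591 CPM (0.72). Both are shown for their promoters and were picked after their values were seen. Of the other motifs searched, the NF-kB site GGGANNTTC was in 3.87% of all promoters, 4.14% of those called higher and 2.50% of those called lower. It was also in 5 of 15 chemokine promoters, those of Cxcl1, Cxcl2, Cxcl3, Cxcl9 and Cxcl10, of which only Cxcl9 was called. The AP-1 site TGANTCA was in 7.93%, 6.45% and 5.32%, and the ETS site of PU.1, GAGGAAGT, in 3.28%, 4.30% and 3.36%. Among promoters of tested genes the shares were 3.75% for the NF-kB site, 4.89% for the AP-1 site and 3.27% for the ETS site. A promoter can hold several of these motifs, and a match describes the letters only.

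Class I antigen presentation genes rose in 12 of 20 cases and fell in none (median 0.30). By batch, from 1 to 4, the median was 0.49, 0.09, 0.51 and 0.27. The count was 6 without batch 3, 7 without batch 4 and 3 with all 12 libraries in the model. H2-T22, a nonclassical class I gene, went from 55.3, 178, 108 and 126 to 111, 253, 230.3 and 229.6 CPM (0.87 ± 0.09). H2-Q6 went from 2.34, 73.99, 13.5 and 40.8 to 6.97, 121, 37.3 and 79.7 CPM (1.096 ± 0.13), and its call was lost with all 12 libraries (1.045). Reads of 50 bases can match several of the near-identical class I genes, so the split among them is uncertain. Psmb8, a subunit of the immunoproteasome, changed by 0.60 ± 0.09.

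Class II presentation had 2 falls among 8 genes and no rise, with 1 fall left without batch 1, 2 or 3. Cd74, the invariant chain, went from 49.8, 36.99, 55.02 and 25.98 to 32.4, 23.5, 30.3 and 18.8 CPM (−0.66 ± 0.08). Ciita, the class II master regulator, was below 2 CPM in every library and lost its call without batch 2 (−2.04) or batch 3 (−1.93). Of 14 genes of costimulation and checkpoint ligands 3 rose and 2 fell. Over all tested genes 11.7% were called higher and 12% lower, and the share of these falls is near the latter. Cd274, which encodes the checkpoint ligand PD-L1, went from 52.7, 62.4, 44.8 and 51.7 to 71.01, 205, 104 and 114 CPM without overlap (1.13 ± 0.16, adjusted p = 0.00187). Lgals9 changed by 0.53 ± 0.08 and the costimulatory receptor gene Cd40 by 0.68 ± 0.12. Cd86 changed by −0.26 ± 0.07, and no fall of this list was called without batch 2, 3 or 4. The call of Cd86 was also lost with all 12 libraries (−0.26).

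Of 18 complement genes 5 rose and 2 fell. The share of falls is near the 12% of all tested genes called lower, and 11.7% were called higher. Without batch 2 there were 3 rises, and without batch 3 or batch 4 there were 2. Cfb, factor B of the alternative pathway, went from 3.17, 10.8, 6.26 and 6.63 to 18.1, 17.1, 21.9 and 14.2 CPM without overlap (1.47 ± 0.25). Itgb2, the shared chain of the complement receptors CR3 and CR4, changed by 0.30 ± 0.08, with no rise in batch 1 and a call lost without batch 2, 3 or 4 (0.25 to 0.28) and with all 12 libraries (0.30).

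Inflammasome genes were split, with 4 rises and 5 falls among 18. Rises numbered 1 without batch 3 and 1 without batch 4, and falls 1, 0 and 1 without batches 2, 3 and 4. Apart from Il1b, the named members were the sensor gene Nlrp1b (−0.59 ± 0.12), lost without batch 3 (−0.55), Txnip (−0.25 ± 0.06), lost without batch 2 (−0.22), 3 (−0.22) or 4 (−0.30), and Nlrp3. Nlrp3 averaged 96.1 ± 6.62 and 75.7 ± 11.9 CPM (−0.35 ± 0.10), was not lower in batch 1 and lost its call without batch 2 (−0.27), 3 (−0.38) or 4 (−0.29).

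Activating and inhibitory receptors of myeloid cells were more often higher than lower. Of 29 tested, 11 rose and 4 fell (median 0.25), against 11.7% of all tested genes called higher and 12% called lower. The share of falls is near that 12%. Without batch 3 there were 7 rises and with all 12 libraries 6, and the median was 0.17 without batch 1 and 0.08 without batch 4. Slamf9, a receptor of the SLAM family, went from 12.6, 124, 54.1 and 72.6 to 114, 332, 233 and 303 CPM (2.15 ± 0.22), with batch 1 rising most and overlapping ranges. Cd300ld, which pairs with the Fc receptor gamma chain, went from 60.3, 95.97, 125 and 83.1 to 83.9, 188, 241 and 165 CPM (0.85 ± 0.09). Reads of the CD300 family may be shared between related genes. Trem2 (ENSMUSG00000023992, GRCm38 chr17:48346401-48354147), a receptor for lipids and apolipoproteins, went from 639, 414, 424 and 435 to 294, 158, 232 and 184 CPM. No full-length library reached the lowest coiled-coil library, and the change was −1.16 ± 0.09 (SE; adjusted p = 8.69e-05), beside a vehicle mean of 673 CPM.

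Fc receptors had 4 rises and 1 fall among 7 genes, and without batch 4 there were 2 rises. Fcgr4 went from 81.96, 277, 194 and 171 to 152, 431, 406 and 312 CPM (0.86 ± 0.08, adjusted p = 0.000163), and Fcer1g, the shared signalling chain, changed by 0.54 ± 0.08 without overlap. Fcgr1, the high-affinity receptor for IgG, changed by 0.44 ± 0.09 and lost its call without batch 3 (0.34) or batch 4 (0.43). Fcgr3, the low-affinity activating receptor, moved down from 702, 332, 718 and 333 to 368, 235, 396 and 217 CPM (−0.73 ± 0.08, adjusted p = 0.000559).

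Scavenger and phagocytic receptors were mostly lower, with 12 falls and 4 rises among 23 genes (median −0.30), and no call of this list was made without the block. Without batch 4 there were 2 rises. Marco, a scavenger receptor for bacteria and particles, was the large exception, going from 352, 191, 339 and 272 to 1711, 489, 931 and 530.1 CPM without overlap (1.51 ± 0.17, adjusted p = 0.000651). Mfge8, which bridges dying cells to phagocytes, went from 93.1, 26.7, 35.3 and 24.9 to 52.4, 16.1, 22.04 and 17.1 CPM (−0.70 ± 0.07). Mrc1, the mannose receptor, and Colec12, a collectin, changed by −0.61 ± 0.07 and −0.59 ± 0.09.

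The disease-associated set holds genes that microglia induce near plaques and in damaged tissue, and 13 of its 28 members fell while 2 rose (median −0.27), with 9 to 16 falls on leaving out single batches and 1 without the block. Apoe (ENSMUSG00000002985, GRCm38 chr7:19696109-19699188), the main lipid carrier of the brain, went from 13663, 12967, 10595 and 11313 to 8095, 9806, 6849 and 8568 CPM (−0.55 ± 0.09, adjusted p = 0.00393). All 4 full-length libraries lay below all 4 coiled-coil libraries. Cd9, a tetraspanin, went from 435, 149, 169 and 171 to 146, 76.5, 78.7 and 82.6 CPM (−1.17 ± 0.10), with batch 1 high in both groups. Ank, a carrier of pyrophosphate, changed by −0.86 ± 0.07. Fth1, the ferritin heavy chain, was measured higher, from 6263, 5658, 5561 and 5907 to 11718, 10078, 9717 and 9859 CPM (0.82 ± 0.08, adjusted p = 0.00028), although reads of its many pseudogenes may be misassigned.

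Of 20 homeostatic genes, which mark undisturbed microglia, 10 fell and 3 rose (median −0.25), with 1 rise left without batch 2 or batch 4. Besides Gpr34, Entpd1, the ectoenzyme CD39 that breaks down extracellular ATP, went from 75.2, 37.7, 72.2 and 41.6 to 31.5, 16.7, 29.8 and 21.4 CPM without overlap (−1.17 ± 0.07, adjusted p = 5.98e-05). Olfml3, a secreted glycoprotein, went from 222, 145, 86.4 and 154 to 113, 71.1, 53.1 and 83.6 CPM (−0.90 ± 0.07). Smad3, a mediator of TGF-beta signalling, rose by 0.50 ± 0.10 with almost no step in batch 3. P2ry12, the ADP receptor of resting microglia, averaged 39.3 ± 12.98 and 37.1 ± 12.7 CPM, with a 95% interval of −0.23 to 0.05. Tmem119 changed by 0.37 ± 0.11 (SE; adjusted p = 0.0418), and its call was lost on leaving out any batch (0.25 to 0.45) and with all 12 libraries (0.36).

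Growth and trophic factor genes had 8 falls and 1 rise among 18 (median −0.56). There were 7 to 9 falls on leaving out single batches, and 3 without the block. Bmp2, a bone morphogenetic protein, went from 35.1, 30.3, 32.7 and 29.5 to 15.9, 13.9, 16.2 and 12.4 CPM, without overlap and with little spread (−1.13 ± 0.07, adjusted p = 6.57e-05). Igf1 (ENSMUSG00000020053, GRCm38 chr10:87858265-87937042), a factor that supports neurons and oligodendrocytes, went from 2217, 1438, 1663 and 1593 to 1111, 794, 1163 and 893 CPM, also without overlap (−0.80 ± 0.09, adjusted p = 0.000458). Gdf15, a stress-induced cytokine, was the rise, from 0.831, 3.32, 1.73 and 2.39 to 1.47, 18.7, 2.68 and 8.65 CPM, carried mainly by batches 2 and 4 (1.68 ± 0.29).

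Matrix proteases and their inhibitors had 6 falls and 2 rises among 22. Rises were no more frequent than the 11.7% over all tested genes, of which 12% were called lower. Plau, the urokinase gene, went from 254, 219.7, 253 and 242 to 107, 113, 148 and 145 CPM (−0.93 ± 0.09, adjusted p = 0.000212), and Serpine2, an inhibitor of serine proteases, from 42.3, 31.02, 25.98 and 38.2 to 19.03, 18.8, 11.2 and 23.1 CPM (−0.95 ± 0.10). The groups of neither gene overlapped. Timp2 changed by −0.52 ± 0.06, and the collagenase gene Mmp13 by 0.94 ± 0.15. Lysosomal genes had 7 falls and 4 rises among 35, with 1 rise left without batch 4. The share of rises is near the 11.7% of all tested genes called higher, and 12% were called lower. Atp6v0d2, a subunit of the proton pump, changed by −0.999 ± 0.10, with batch 1 high in both groups. The protease gene Ctsf changed by −0.64 ± 0.08.

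In glycolysis, which turns glucose into pyruvate, 12 of 19 genes rose and 1 fell (median 0.47), with 11 or 12 rises on leaving out single batches and 4 without the block. Hk2 and Hk3, hexokinases that start the pathway, went from 97.7, 100.1, 84.2 and 89.2 to 126, 163, 124 and 140.4 CPM (0.57 ± 0.07) and from 304, 394, 272 and 342 to 469, 547, 472 and 536 CPM (0.63 ± 0.07). Both separated the groups. Aldoa, an aldolase, changed by 0.53 ± 0.06, and Pfkm by −0.28 ± 0.08, a call lost on leaving out any batch (−0.25 to −0.33). Gapdh, which is abundant in most cells, had 0 to 4 counts in the 8 libraries. Levels of glycolytic genes with many processed pseudogenes are therefore uncertain in this table.

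Oxidative phosphorylation genes of the nucleus rose in 11 of 36 cases and fell in none (median 0.17). Without batch 3 there were 3 rises and without batch 1 there were 7. Atp5o, an ATP synthase subunit, went from 56.1, 68.02, 62.4 and 64.4 to 83.4, 84.2, 86.4 and 82.7 CPM without overlap (0.43 ± 0.06). Cox6a1 changed by 0.32 ± 0.06 and Cox5a by 0.43 ± 0.09, the latter with a call lost without batch 4 (0.39). Genes of the mitochondrial genome took a lower share of the counts with full-length NfL in 4 of 4 batches. The shares were 0.411%, 0.256%, 0.450% and 0.415% with the coiled-coil form and 0.342%, 0.210%, 0.372% and 0.299% with the full-length form (exact paired permutation test, 2-sided, p = 0.125, the smallest p that 4 pairs allow). Its part in the results was not tested.

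Genes of nitric oxide, arginine and itaconate metabolism had 6 rises and 1 fall among 12, and 6 rises in every fit with the block. Nos2 and Acod1 are also counted among the rises of the cytokine and mediator list. Beside Slc13a3 and Nos2, Acod1, which makes itaconate, went from 66.1, 136, 127 and 141 to 228, 302, 425 and 242 CPM without overlap (1.36 ± 0.15, adjusted p = 0.000539). Slc7a1, which imports arginine, changed by 0.72 ± 0.07. Arg2, a mitochondrial arginase that competes for arginine, changed by −0.80 ± 0.18 with batch 1 high in both groups. Iron-handling genes had 7 rises and 2 falls among 15, with 1 fall without batch 2. Their share of falls is near the 12% of all tested genes called lower, and 11.7% were called higher. Slc11a1, which pumps divalent metals out of phagosomes, went from 298, 311, 223 and 287 to 435, 440.3, 341 and 415 CPM without overlap (0.55 ± 0.06), and Ncoa4, the cargo receptor for ferritin breakdown, changed by −0.55 ± 0.09.

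Targets of the oxidative stress factor NRF2 and antioxidant enzymes rose in 15 of 27 cases and fell in 2 (median 0.31, with 12 to 17 rises on leaving out single batches and 1 without the block). The falls numbered 4, 1 and 0 without batches 1, 2 and 4. Hmox1, which breaks down heme, went from 849.6, 917, 502 and 872 to 1549, 2374, 829 and 1885 CPM, with batch 3 lowest in both groups (1.02 ± 0.10, adjusted p = 0.000367). Me1, a source of NADPH, changed by 0.80 ± 0.11 and the glutathione reductase gene Gsr by 0.65 ± 0.09. Nfe2l2, which encodes NRF2 itself, changed by −0.31 ± 0.06, a call lost without batch 3 (−0.28) or batch 4 (−0.29).

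Genes of the unfolded protein response and the linked amino acid response rose in 18 of 26 cases and fell in 1 (median 0.34, with 13 to 17 rises on leaving out single batches and 1 without the block). Asns, asparagine synthetase, went from 16.7, 64.6, 22.1 and 48.9 to 40.1, 156, 60.8 and 83.7 CPM (1.19 ± 0.10, adjusted p = 0.000159). Chac1, which degrades glutathione, went from 0.491, 2.52, 0.838 and 1.63 to 1.64, 13.1, 2.6004 and 8.79 CPM (2.17 ± 0.18, adjusted p = 0.000146). Ddit3, the stress factor CHOP, went from 15.3, 77.3, 39.6 and 57.8 to 28.8, 128, 75.4 and 85.3 CPM (0.78 ± 0.07). The ranges of all 3 genes overlapped, with batches 2 and 4 high in both groups. Edem1, which routes misfolded proteins to breakdown, changed by −0.30 ± 0.08 and lost its call without batch 3 (−0.35) or batch 4 (−0.32).

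Asns and Chac1 are known targets of ATF4, which binds amino acid response elements, and their promoters are shown with the matches to TGATGNAA in capitals, a motif that was added after the values were seen. It was in 4.06% of all promoters, in 2.23% of those of tested genes, in 3.50% of those called higher, in 1.72% of those called lower and in 4 of 23 matched promoters of the unfolded protein response list. The stretches span 100 to 1 bases before the start for Asns and 239 to 140 for Chac1.
Asns, chr6:7693210-7693309, minus strand: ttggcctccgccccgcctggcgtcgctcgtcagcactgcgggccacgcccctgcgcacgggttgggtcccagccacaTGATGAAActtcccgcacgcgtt
Chac1, chr2:119351003-119351102, plus strand: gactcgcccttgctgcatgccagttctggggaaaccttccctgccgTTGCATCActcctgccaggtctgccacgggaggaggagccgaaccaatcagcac

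Proteasome subunit genes had the highest share of called members of all 33 function lists. Of 31 subunits 27 rose and none fell, with a narrow spread of log2 fold changes from 0.15 to 0.61 (median 0.36). There were 22 to 27 rises on leaving out single batches, 26 with all 12 libraries and 1 without the block. Psmd14, the deubiquitinase of the lid, went from 51.2, 72.02, 64.8 and 74.2 to 77.5, 117, 98.2 and 107 CPM without overlap (0.61 ± 0.06, adjusted p = 0.00022). Psmc5, an ATPase of the base, changed by 0.50 ± 0.06 and Psma6, a subunit of the core, by 0.56 ± 0.07.

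Among 22 cholesterol synthesis genes 9 were lower and none higher (median −0.26, with 6 to 9 falls on leaving out single batches and 0 without the block). Msmo1 and Cyp51, which demethylate sterol intermediates, went from 152, 85.2, 68.3 and 100.1 to 95.8, 64.5, 54.9 and 61.8 CPM (−0.52 ± 0.08) and from 89.6, 49.5, 34.02 and 57.6 to 56.5, 36.5, 29.6 and 38.1 CPM (−0.48 ± 0.08). Among 16 genes of cholesterol efflux and targets of LXR, 2 rose and 4 fell. The share of rises is near the 11.7% of all tested genes called higher, and 12% were called lower. Without batch 2, 3 or 4 there were 2 falls, and the rises numbered 5 without batch 1 and 1 without batch 3. Abcg1, which exports cholesterol, went from 53.2, 294, 177 and 201 to 88.7, 515, 347 and 405 CPM (0.88 ± 0.07, adjusted p = 9.23e-05), with batch 1 low in both groups. Arl4c changed by −0.60 ± 0.06, and Cd5l by −0.64 ± 0.16 with no fall in batch 1 and a call lost without batch 2 (−0.50), 3 (−0.53) or 4 (−0.66) and with all 12 libraries (−0.62).

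In prostaglandin and leukotriene synthesis 2 of 15 genes rose and 4 fell, with 2 falls left without batch 2 or batch 4 and 1 rise left without batch 3. The share of rises is near the 11.7% of all tested genes called higher, and 12% were called lower. Ptgs1, the constitutive cyclooxygenase, went from 87.3, 25.2, 69.5 and 20.8 to 42.7, 11.9, 31.7 and 12.6 CPM (−1.002 ± 0.08, adjusted p = 0.000121), and Alox5, which starts leukotriene synthesis, changed by −1.09 ± 0.17. Pla2g4a, which releases arachidonic acid, rose by 0.40 ± 0.07 without overlap. The leukotriene receptor gene Cysltr1 changed by −0.27 ± 0.07, lost without batch 2 (−0.23) or batch 4 (−0.23) and with all 12 libraries (−0.27). Genes of alternative activation and border macrophages had 6 falls and 2 rises among 15, with 3 falls left without batch 4. Rises in this list, too, had a share near that of all tested genes. Clec10a, a lectin, changed by −1.43 ± 0.22 with batch 3 high in both groups, and Il4ra, a chain of the receptors for IL-4 and IL-13, rose by 0.55 ± 0.06.

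Cell cycle genes had 10 falls and no rise among 35 (median −0.46), but batch 1 did not share the direction. The median over the list was 0.26 in batch 1, and −0.87, −0.29 and −0.93 in batches 2 to 4, and the fitted median was −0.19 without batch 4. Without batch 1, 27 genes fell, without batch 2, 3 or 4 the number was 4, 3 and 4, and with all 12 libraries it was 2. Cenpa, the histone of centromeres, went from 16.8, 10.8, 28.3 and 15.9 to 10.9, 3.23, 11.7 and 4.86 CPM (−1.29 ± 0.17). Ccnb2, a mitotic cyclin, and Kif23, a motor of cytokinesis, changed by −1.24 ± 0.21 and −1.01 ± 0.19, the latter with a call lost with all 12 libraries (−0.94).

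**Figure D4:**
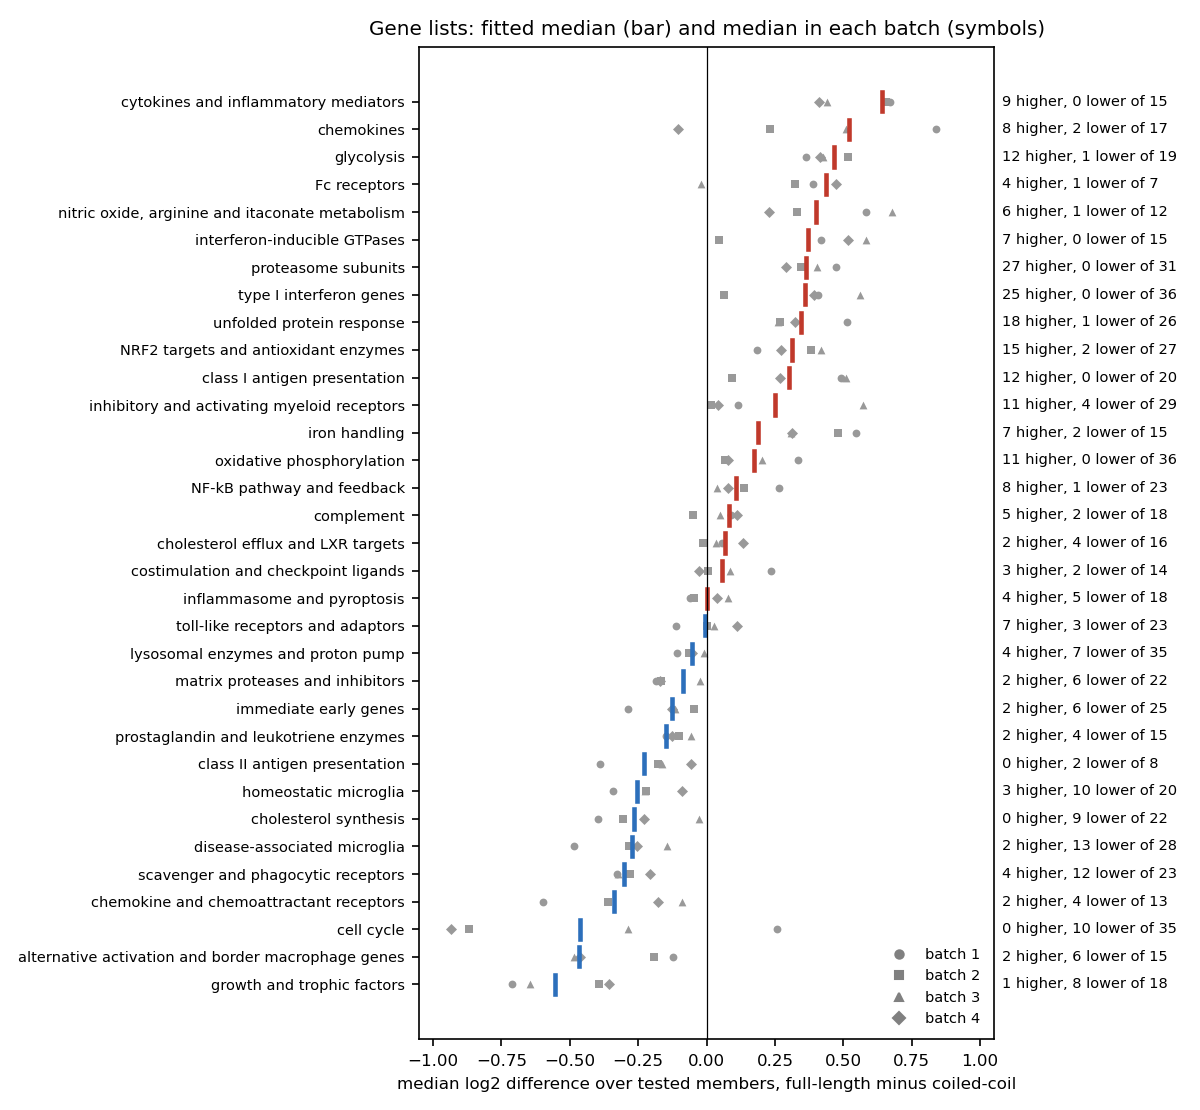
Median log2 difference, full-length minus coiled-coil, over the tested members of each of 33 function lists: bars give the fitted median (red above 0, blue below) and grey symbols the median within each batch. Counts of called members stand at the right, and the batch 1 symbol of the cell cycle list (0.26) lies on the other side of 0 from its bar (−0.46).

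Summed markers of most other cell types that mixed glial cultures can hold were lower with full-length NfL. In bulk RNA fewer cells of a type and less RNA per cell cannot be told apart. The summed neuron markers, in CPM of the library total, were 76.5, 50.02, 26.4 and 76.5 with coiled-coil NfL and 48.2, 32.2, 15.7 and 44.4 with full-length NfL. Of 8 tested neuron markers 5 fell and none rose (median −0.68), 3 without batch 2 or batch 4. Dcx, a marker of young neurons, went from 30.3, 16.6, 11.2 and 27.5 to 18.3, 10.99, 7.18 and 15.3 CPM (−0.71 ± 0.08), and the microtubule gene Map2 changed by −0.67 ± 0.08.

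Astrocyte markers had 4 falls among 10, none of which was called without batch 3 or batch 4, and 2 without batch 1 or batch 2. Their summed level was 24.4 to 57.1 CPM with coiled-coil NfL and 23.2 to 39.7 CPM with full-length NfL. The glutamate transporter gene Slc1a3 changed by −0.40 ± 0.12, and its call was lost on leaving out any batch (−0.32 to −0.44). Aldh1l1, the most abundant of the list, did not pass the test (15.2 ± 0.687 and 13.2 ± 3.64 CPM, with an interval of −0.53 to 0.06).

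Fibroblast and pericyte markers had 3 falls among 7, and 1 was left without batch 1, 3 or 4. Their sum was 1520.5, 164, 284 and 148 CPM with coiled-coil NfL and 535, 118, 186 and 74.97 CPM with full-length NfL, most of it from Fn1, the fibronectin gene, which macrophages also express (−0.89 ± 0.15). Sparc changed by −0.44 ± 0.12, lost without batch 1 (−0.39), 3 (−0.45) or 4 (−0.36). Col1a2, Col3a1, Dcn and Lum stayed below 1 CPM in the 8 libraries.

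Endothelial markers had 1 rise and 1 fall among 6, with no rise without batch 1, 3 or 4 and 2 falls without batch 3. Flt1, a VEGF receptor, changed by −0.76 ± 0.07, whereas Kdr had an interval of −0.55 to 0.28, and Cldn5 was at 0 in all 8 libraries. Border macrophage markers had 4 falls among 9, all of them also counted in the list of alternative activation and border macrophages. Their most abundant genes Stab1 and Ms4a7 did not pass the test, with intervals of −0.38 to 0.04 and 0.00 to 0.32, though without batch 1 Stab1 was called (−0.25). Oligodendrocyte markers had 2 rises and 2 falls among 10, with no rise without batch 1, 3 or 4 and 1 without batch 2. They include Mbp at −0.38 ± 0.09 and Cnp at 0.30 ± 0.09. The call of Cnp was lost without batch 1 (0.23), 3 (0.27) or 4 (0.28) and with all 12 libraries (0.30).

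The summed levels of the neuron, astrocyte, fibroblast, endothelial, border macrophage and microglia identity markers were each lower with full-length NfL in 4 of 4 batches (exact paired permutation test, 2-sided, p = 0.125 each, the smallest p that 4 pairs allow). A sum can rest largely on 1 gene. The endothelial sum averaged 68.9 CPM with coiled-coil and 48.2 CPM with full-length NfL, and Flt1 within it 44.0 and 25.4 CPM. The microglia sum averaged 12572 and 11154 CPM, and Csf1r within it 3860 and 2840.5 CPM. These falls therefore do not describe every member of a list. Of 11 tested microglia markers 5 rose and 4 fell, with 1 rise without batch 2 or batch 4 and 2 without batch 3. The microglia sum was 11711, 12965, 13124 and 12489 CPM with coiled-coil NfL and 10772, 10879, 11757 and 11208 CPM with full-length NfL. The marker sums moved alongside the falls in growth factor, matrix, scavenger, homeostatic and cholesterol synthesis genes, and their part in those results was not tested. Of 10 lymphocyte markers 6, among them Cd3e and Nkg7, were at 0 in all 8 libraries, and Cd4, which macrophages also express, did not pass the test. It was called without batch 1 (−0.80). Of 10 neutrophil markers 4 were at 0, among them S100a9 and Mpo, and Csf3r did not pass the test (interval −0.22 to 0.04).

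**Figure D5:**
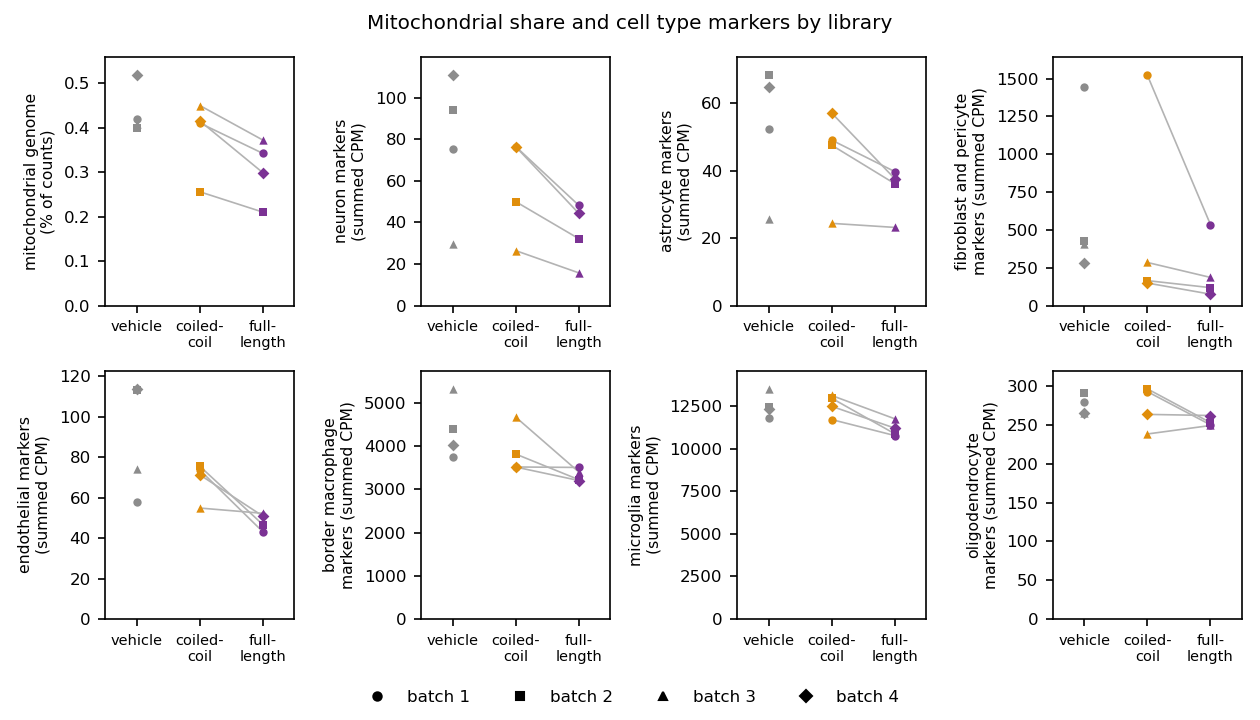
Share of counts from the mitochondrial genome and summed CPM of marker lists by library, from 0 upwards, with grey for vehicle, orange for coiled-coil, purple for full-length NfL and lines joining the libraries of a batch. All lines slope down from coiled-coil to full-length except that of batch 3 in the oligodendrocyte panel, and the border macrophage line of batch 1 is almost level.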

How the data were processed

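Polyadenylated RNA of 12 microglia cultures was sequenced with a stranded kit as single reads of 50 bases, per the labels' protocols. Per the submitters' processing notes reads were aligned with GSNAP to GRCm38. The sources used here give neither the version of the aligner nor the counting tool, annotation or strand setting, so reads of overlapping antisense genes, of genes with many processed pseudogenes (Fth1, Aldoa, Gapdh) and of close relatives (class I, Gbp, CD300) may be misassigned. The deposited values are raw whole-number counts per gene, made by the authors, with no normalization. All 12 columns were matched to samples by name.

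Genes were kept by edgeR's filterByExpr (minimum count 10, total 15), which removed 38496 genes and kept 99.9% of the counts in each of the 8 libraries. Counts were scaled with TMM factors and tested in edgeR 4.0.16 (R 4.3.3) with glmQLFit and glmQLFTest over the 8 libraries, with group and batch as terms and 3 residual degrees of freedom. Genes were called at a Benjamini-Hochberg adjusted p under 0.05 over all 14140 tested genes. SE and 95% intervals of log2 fold changes come from the same fit. Batches pair the samples by the labels. As a check, deviations from the group means correlated across genes at 0.44 to 0.76 between libraries of the same number and at −0.47 to 0.36 between different numbers.

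Genes named are the 12 largest rises and 12 largest falls (at least 5 CPM in the higher group, same direction in 4 batches, predicted genes left out), the 6 smallest p in each direction, up to 3 called members of each function list in the leading direction and 1 in the other, the 2 most abundant members of each marker list, and 14 genes named whatever their result. A few genes that this rule names are not reported here. The members and lists were chosen with earlier results of these data known. Gene positions are from GENCODE M21 (GRCm38) and promoters from RefSeq (GRCm38.p6), in which 9953 of the 14140 tested genes matched. Alternatives were a fit without the block, all 12 libraries, DESeq2 1.42.0, RLE (relative log expression) and upper-quartile scaling, other count filters, each batch left out, and a smooth trend on GC content and length removed (mgcv 1.9.3). Marker sums are CPM of the library total.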

Additional observations from a re-analysis of the deposited data

Results flagged for a closer look

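In 46 of 465 groups of 4 libraries (155 genes in 3 groups), 1 library lay so far from the others that its gap to the nearest of them passed Dixon's 95% limit for the share of the range. Chance gives about 1 in 20 groups, and genes in a library are not independent. The 46 cases came from 34 genes, with 34 in batch 1, none in batch 2, 11 in batch 3 and 1 in batch 4. Vehicle libraries held 18, coiled-coil libraries 17 and full-length libraries 11, so batch 1 stood apart without NfL as well. Values are CPM, with the range of the other libraries of the group in brackets, and their part in the results was not tested.

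With vehicle, batch 1 lay above the others for Lox 64.2 (11.5 to 15.7), Slc13a3 352 (28.2 to 29.98), Syt7 1.07 (0.238 to 0.377), Slc11a1 325 (182 to 196) and Il1b 101 (28.1 to 40.5). Batch 1 with vehicle was also above for Hk2 97.1 (81.4 to 83.9), Gsr 90.8 (43.9 to 49.2), Fn1 1377 (239.9 to 405), Cd55 0.984 (0.126 to 0.199) and Cd14 1680.2 (835 to 934). Likewise above with vehicle in batch 1 were Fosl2 116 (58.5 to 64.4), Arg2 24.6 (3.14 to 4.16) and Mbp 131 (90.7 to 97.5). With vehicle, batch 3 lay above the others for Cd300ld 111 (60.04 to 60.7), Mrc1 1178 (640.1 to 729.6), Psma6 117 (109 to 110.2), Clec10a 16.1 (1.47 to 2.68) and Cd40 18.9 (6.16 to 7.704).

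With coiled-coil NfL, batch 1 lay above the others for Cytip 25.7 (7.97 to 9.66), Trem2 639 (414 to 435), Cd9 435 (149 to 171), Ank 132 (77.4 to 85.9) and Mamdc2 18.6 (1.77 to 2.69). Batch 1 with coiled-coil NfL was also above for Mfge8 93.1 (24.9 to 35.3), Atp6v0d2 66.4 (18.8 to 19.5), Nr4a1 13.6 (5.52 to 6.65), Fn1 1469.9 (131 to 272) and Arg2 14.2 (2.61 to 3.67). Likewise above with coiled-coil NfL in batch 1 was Mbp 142 (78.9 to 87.3). With coiled-coil NfL, batch 1 lay below the others for Cd4 6.4995 (10.04 to 10.3). With coiled-coil NfL, batch 3 lay above the others for Clec10a 22.6 (3.33 to 4.29), Cysltr1 98.6 (70.5 to 75.03) and P2ry12 58.7 (32.2 to 33.2). With coiled-coil NfL, batch 3 lay below the others for Hmox1 502 (849.6 to 917). With coiled-coil NfL, batch 4 lay below the others for Csf3r 99.2 (120.5 to 124).

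With full-length NfL, batch 1 lay above the others for Cytip 5.496 (2.03 to 2.29), Cd9 146 (76.5 to 82.6), Mamdc2 3.75 (0.467 to 0.619), Mfge8 52.4 (16.1 to 22.04) and Atp6v0d2 31.9 (8.37 to 12.4). Batch 1 with full-length NfL was also above for Fos 179 (79.2 to 94.97) and Arg2 8.75 (1.26 to 2.11). With full-length NfL, batch 1 lay below the others for H2-T22 111 (229.6 to 253) and Ms4a7 558 (899.97 to 929.6). With full-length NfL, batch 3 lay above the others for Cysltr1 97.9 (53.9 to 58.9) and P2ry12 55.9 (29.6 to 33.2).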

How the results depend on the processing

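All of the 3349 calls that could be tested kept their direction in all 13 alternatives. The alternatives reuse the libraries that picked these genes, and every batch holds both forms. The direction was therefore largely fixed in advance, and its being kept is not separate support for the calls. The block decided how many passed. Without the replicate block 85 genes were higher and 83 lower with the 8 libraries, and 202 and 197 with all 12. With the block and all 12 libraries the counts were 1321 and 1485. On leaving out single batches, 871 to 1620 genes were higher and 871 to 1681 were lower, and both counts were lowest without batch 4. Each of these fits holds 6 libraries in place of 8. DESeq2 with the block gave 1416 and 1457, no filter 1949 and 2128, and the removal of the GC and length trend 1728 and 1539. With upper-quartile scaling 40.5% of calls were higher, against 49.5% with TMM.

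Of the 3349 genes 1281 passed in all 12 fits with the block. Among the genes named, 3 that had not passed the test changed sign. The log2 fold change of Kdr (−0.13 in the fit reported) was at 0.019 without the replicate block, at 0.020 with all 12 libraries and no block, and at −0.42 to 0.032 on leaving out single batches, positive without batch 1. The log2 fold change of Tlr2 (−0.02) was at −0.096 to 0.060 on leaving out single batches, positive without batch 4. The log2 fold change of Cxcl10 (0.02) was at −0.0072 with all 12 libraries and the block, −0.015 with upper-quartile scaling, −0.022 after the GC and length correction, and −0.12 to 0.092 on leaving out single batches, negative without batch 3. The cause was not tested. Total counts per library limit genes with few reads, and the 38496 genes under the filter, Nefl and Il6 among them, were not tested.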

Other observations

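The families below were picked from gene symbols after the values were seen, so their counts are descriptions, to be read beside the 11.7% of tested genes that were higher and the 12% that were lower. Of 20 cytosolic aminoacyl-tRNA synthetases, which charge tRNAs with amino acids, 16 rose and none fell, with a median log2 fold change of 0.37 and 12 to 15 rises on leaving out single batches. Aars, the enzyme for alanine, went from 128, 375, 181 and 298 CPM with coiled-coil NfL to 296, 657, 344 and 461 CPM with full-length NfL (0.89 ± 0.09), and Yars, the enzyme for tyrosine, changed by 0.59 ± 0.06. Of 7 subunits of the cytosolic chaperonin, which folds actin and tubulin, 6 rose, among them Cct8 (0.38 ± 0.07), with 4 to 7 on leaving out single batches. Of 75 mitochondrial ribosomal proteins 22 rose and none fell, but 11, 9, 3 and 6 without batches 1, 2, 3 and 4 and 14 with all 12 libraries. Of 58 heat shock proteins 11 rose and 4 fell, with 9, 5, 6 and 4 rises without batches 1, 2, 3 and 4. None of these calls was made without the block.

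Among 192 solute carriers 32 rose and 25 fell (median 0.005), with 22 to 33 rises and 11 to 19 falls on leaving out single batches. The share of these falls is near the 12% of all tested genes called lower, and 11.7% were called higher. Beside Slc13a3, the rises included Slc7a5, which carries large neutral amino acids, from 11.8, 36.4, 10.8 and 24.8 to 28.99, 107, 22.7 and 48.4 CPM (1.23 ± 0.10), and Slc28a2, a nucleoside carrier (2.000 ± 0.19). Slc46a3, a lysosomal carrier, fell (−0.95 ± 0.09). Of 325 zinc finger genes with Zfp symbols 6 rose and 44 fell (median −0.14), with 20, 19 and 21 falls without batches 2, 3 and 4. Their share of falls is near the 12% of all tested genes called lower, and 11.7% were called higher. Klhl and Kbtbd genes, most of which encode adaptors of cullin ubiquitin ligases, had 7 falls and no rise among 32, with 4 without batch 3 or batch 4, and Klhl23 changed by −1.22 ± 0.13.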
